A study of Mus musculus with 7 samples.

Results

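MiR-221 and miR-222 are microRNAs (miRNAs) made from a pair of neighbouring hairpins on the mouse X chromosome. The 3 mature arms described here, mmu-miR-221-3p, mmu-miR-221-5p and mmu-miR-222-3p (mmu for mouse), were taken by name from a table of 1978 mature miRNAs, and all 3 were measured. The table also holds the remaining arm, miR-222-5p, which is given beside them. Small RNA was sequenced from CD8+ T cells of the spleen of gBT-I mice, animals whose T cells carry a transgenic receptor for a herpes simplex virus peptide, so every group shares this receptor. Cells were sorted by 2 surface proteins. CD44hi CD122hi cells are known as virtual memory (VM) cells, which bear memory markers without having met foreign antigen, and CD44lo CD122lo cells are true naive (TN) cells. There were 2 neonatal VM, 1 neonatal TN, 2 adult VM and 2 adult TN libraries, and the age in days, any pooling of animals and whether replicates were separate animals are not given in the sources used here. The p-values therefore reflect variation among these libraries, part or all of which may be technical.

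A miRNA finds its targets mainly through its seed, the short stretch that follows its first base, and lowers the stability and translation of messenger RNAs that hold a match. MiR-221 and miR-222 share a seed and are usually made from a single primary transcript. In human cells they repress the cell cycle inhibitors p27 (CDKN1B) and p57 (CDKN1C) and the receptor KIT, and they are known to rise in T cells after activation.

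The mature sequences (RefSeq, GRCm38.p6, minus strand) are shown because the seed, in capitals, defines what the arms have in common.
miR-221-3p: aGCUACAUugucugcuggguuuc
miR-222-3p: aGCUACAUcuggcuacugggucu
miR-221-5p: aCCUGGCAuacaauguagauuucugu
The 3p arms are both 23 bases long, share their first 8 bases and match at 11 of 23 positions when aligned from the 5′ end. The 5p arm of miR-221 is 26 bases long and has another seed. Of 1679 mature mouse miRNAs in the RefSeq table, 3 carry the seed GCUACAU, and the third, miR-1928, had 0 counts in all 7 libraries, which allows up to 0.915 CPM (counts per 1000000 counts of a library) in the deepest library and 1.90 CPM in the shallowest.

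The hairpins are shown with the mature arms listed in RefSeq in capitals, since the levels of these arms are compared within and between the hairpins.
Mir221 (chrX:19146294-19146388): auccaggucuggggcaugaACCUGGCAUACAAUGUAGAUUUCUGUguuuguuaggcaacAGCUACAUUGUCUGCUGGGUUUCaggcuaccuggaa
Mir222 (chrX:19146893-19146971): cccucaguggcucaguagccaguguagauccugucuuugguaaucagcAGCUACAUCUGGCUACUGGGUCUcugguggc
Mir222 lies upstream of Mir221 on the same strand, with 504 bases between the hairpins. No other GENCODE gene overlaps them (0 found), and the nearest, the noncoding transcript Gm14636 on the same strand, lies 10009 bases away on the Mir222 side. Among genes repressed by this seed in human cells, the longest annotated mouse 3′ UTR of each holds the complement of the seed, ATGTAGC (GRCm38, given in capitals on the transcript strand).
Cdkn1b (chr6:134924423-134924445, plus strand): agcattggATGTAGCattgcgca
Cdkn1c (chr7:143458918-143458940, minus strand): tttcgttcATGTAGCaggaaccg
Kit (chr5:75654984-75655006, plus strand): ggagatatATGTAGCaagactag
Kit (chr5:75656515-75656537, plus strand): atattgaaATGTAGCaataatgt
Of 21020 genes with an annotated 3′ UTR, 9.5% hold this 7-base match, searched on the transcript strand alone. A match is a description of the sequence, and target RNAs were not analysed here.

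The 3p arms were the main products of both hairpins. Levels are CPM scaled by TMM factors, which set libraries to a common centre. Of 288 miRNAs tested, miR-222-3p stood at rank 112 by its mean of 209 CPM over the 7 libraries and miR-221-3p at rank 122 with 151 CPM. MiR-222-5p averaged 10.8 CPM at rank 254 and miR-221-5p 6.33 CPM at rank 283. Each arm stood on a single line of the table with whole numbers, so none of these values shows reads divided between precursors.

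MiR-221-3p had 118 and 133 CPM in neonatal VM cells, 62.2 CPM in the neonatal TN library, 200 and 279 CPM in adult VM cells and 143 and 119 CPM in adult TN cells. Adult VM cells were the highest group, neonatal VM and adult TN cells overlapped, and the neonatal TN library was the lowest. These values rest on 200 to 808 counts per library, and in the neonatal TN library the 200 counts made up 67.1 CPM of the library total (95% Wilson interval 58.4 to 77.0, for counting error alone).

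MiR-222-3p had 291 and 316 CPM in neonatal VM cells, 132 CPM in the neonatal TN library, 196 and 201 CPM in adult VM cells and 141 and 190 CPM in adult TN cells. Here neonatal VM cells were the highest group. Adult VM cells came next at 198 ± 2.88 CPM (SD, n = 2), ahead of adult TN cells at 165 ± 34.8 CPM (SD, n = 2) by less than the SD of the adult TN pair, and the neonatal TN library lay just under the lower adult TN library. Its 424 counts in neonatal TN were 142 CPM of the library total (95% Wilson interval 129 to 156, for counting error alone).

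MiR-221-5p, the minor arm of its hairpin, had 17 and 46 counts in neonatal VM cells, 9 counts in the neonatal TN library, 20 and 21 counts in adult VM cells and 6 and 6 counts in adult TN cells. Scaled, these were 8.41 and 12.0 CPM in neonatal VM, 2.80 CPM in neonatal TN, 8.05 and 7.26 CPM in adult VM and 3.24 and 2.57 CPM in adult TN. All 4 VM libraries lay above all 3 TN libraries, though how many of all tested miRNAs separate the subsets in this way was not counted. The miR-222-5p arm had 14.3 and 24.3 CPM in neonatal VM, 10.9 CPM in neonatal TN, 10.9 and 9.68 CPM in adult VM and 1.62 and 3.85 CPM in adult TN, so adult TN cells lay below every other group. To be tested, a miRNA needed at least 10 CPM, before TMM scaling, in at least 2 libraries. MiR-221-5p met this through the 2 neonatal VM libraries alone and miR-222-5p through the 3 neonatal libraries alone, so their passing was tied to the groups in which they were high.

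**Figure D1:**
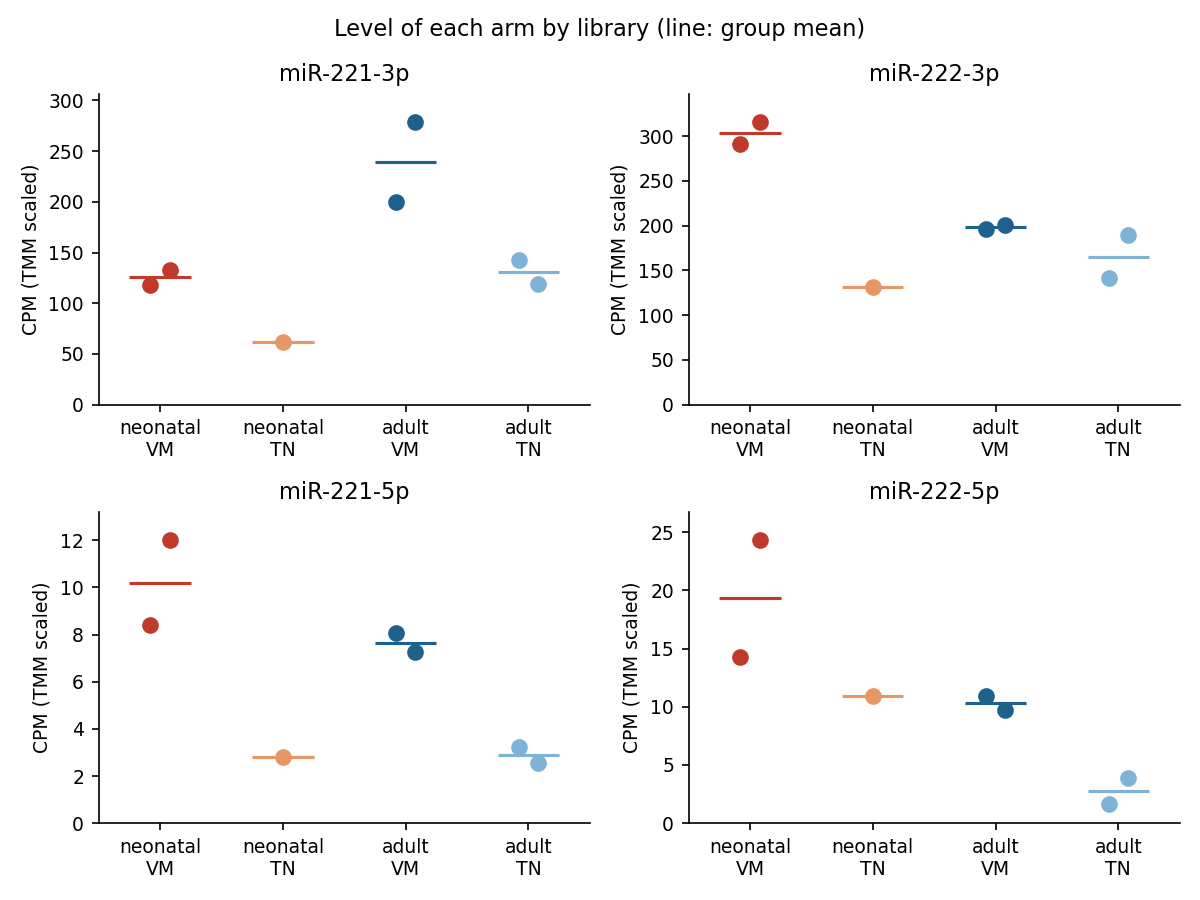
Level of each arm in CPM scaled by TMM factors (vertical axes from 0, a different range in each panel) for the 4 groups; each point is a library and the line is the group mean. MiR-221-3p is highest in adult VM cells (200 and 279 CPM) and miR-222-3p in neonatal VM cells (291 and 316 CPM), while both 3p arms are lowest in the neonatal TN library.

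Of the 2 arms that share a seed, miR-221-3p was lower in neonatal than in adult cells and miR-222-3p did not pass. Fold changes with age are neonatal over adult. MiR-221-3p was at 104 ± 37.3 CPM (SD, n = 3) in neonatal cells, against 185 ± 71.3 CPM in adult cells (SD, n = 4), a log2 change of -0.99 (SE 0.21, edgeR adjusted p = 0.00404) in a model with age and subset. MiR-222-3p averaged 246 ± 99.7 CPM in neonatal cells (SD, n = 3), against 182 ± 27.7 CPM in adult cells (SD, n = 4), and did not pass (log2 change 0.25 with SE 0.24, adjusted p = 0.403 in edgeR). For miR-221-5p the log2 fold change was 0.30 (SE 0.31, edgeR adjusted p = 0.433). So 1 of the 3 members was called with age, where 53.8% of all tested miRNAs were called, 26.4% as higher and 27.4% as lower in neonatal cells, so the member called is not set apart by passing. MiR-222-5p had a log2 change of 1.26 (SE 0.37, edgeR adjusted p = 0.018, and 0.0153 with no filter on low counts). Its call was lost without neonatal VM replicate 2 (1.11) and without the neonatal TN library (0.97). This arm had met the filter through the neonatal libraries alone, where it was high.

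The size of the age change depends on the centre chosen. Scaled by library totals alone, the median log2 change over every tested miRNA shifted by 0.45, miR-221-3p stood at -0.54 (edgeR adjusted p = 0.0631) and miR-222-3p at 0.71 (edgeR adjusted p = 0.0383). MiR-221-3p was negative and miR-222-3p positive under TMM, RLE, upper quartile and library total scaling. Without the neonatal TN library, where age is read from VM cells alone, miR-222-3p passed at 0.64 (edgeR adjusted p = 0.0261).

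Within VM cells the 2 seed-sharing arms changed in opposite directions. MiR-221-3p fell to 126 ± 10.5 CPM in neonatal VM cells, against 240 ± 56.1 CPM in adult VM cells (SD, n = 2 each; log2 change -0.93 with SE 0.24, adjusted p = 0.006 in edgeR). MiR-222-3p rose to 303 ± 17.8 CPM in neonatal VM cells, against 198 ± 2.88 CPM in adult VM cells (SD, n = 2 each; log2 change 0.61 with SE 0.21, adjusted p = 0.0301 in edgeR). For neither arm did the 2 neonatal VM libraries overlap the 2 adult VM libraries, but the share of all tested miRNAs without overlap was not counted. In this comparison 53.8% of tested miRNAs were called, 22.9% higher and 30.9% lower. The call of miR-222-3p was lost without neonatal VM replicate 1 or 2 (edgeR adjusted p = 0.0754 and 0.173) and with no filter (0.134), and that of miR-221-3p without neonatal VM replicate 1 (log2 fold change -0.83, edgeR adjusted p = 0.05004) and under library totals (-0.42, edgeR adjusted p = 0.16).

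Within TN cells, where 1 neonatal library was set against 2 adult ones, miR-221-3p was at 62.2 CPM in neonatal TN, against 131 ± 17.0 CPM in adult TN cells (SD, n = 2), and was called lower (log2 change -1.07 with SE 0.31, adjusted p = 0.0146 in edgeR). The neonatal TN library has no replicate, so the SE and p in TN cells take their spread from the other groups. MiR-222-3p was at 132 CPM in neonatal TN, against 165 ± 34.8 CPM in adult TN cells (SD, n = 2), a log2 change of -0.33 (SE 0.27, edgeR adjusted p = 0.33), which was 0.04 under library totals. MiR-221-5p had a log2 change of -0.04 (SE 0.71, edgeR adjusted p = 0.98), which was 0.33 under library totals. In TN cells 47.9% of tested miRNAs were called, 21.5% as lower. Without adult TN replicate 1 miR-221-3p had -1.06 (edgeR adjusted p = 0.0654), and under library totals -0.72 (edgeR adjusted p = 0.0791).

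**Figure D2:**
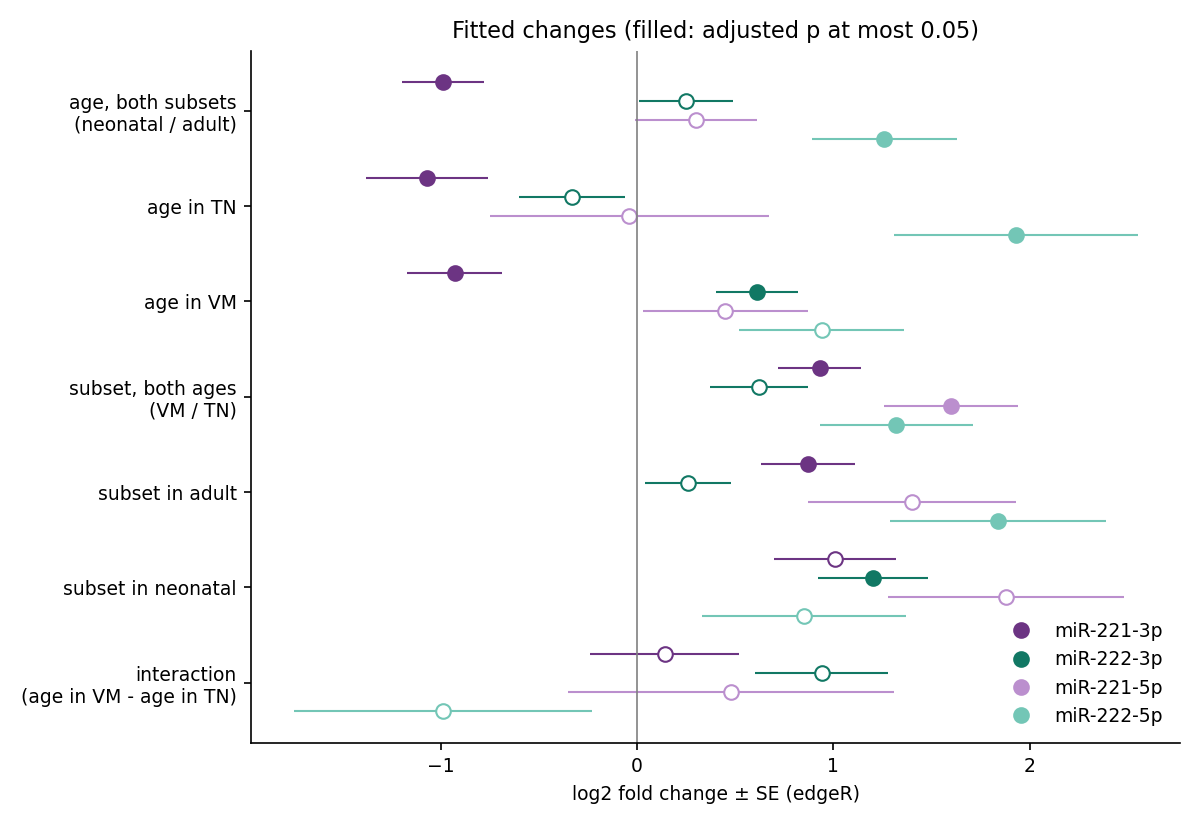
Fitted log2 fold changes with their SE (horizontal axis) for the 4 arms in the 7 comparisons (vertical axis); filled points passed at an edgeR adjusted p of at most 0.05. MiR-221-3p lies left of 0 in all 3 age comparisons (-0.99, -1.07 and -0.93), miR-222-3p lies right of 0 with age in VM cells (0.61), and all 4 arms lie right of 0 in the 3 subset comparisons.

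The ratio of the 2 seed-sharing arms within a library does not depend on how libraries are scaled. MiR-222-3p had 2.46 and 2.38 times the counts of miR-221-3p in neonatal VM cells and 2.12 times in the neonatal TN library, against 0.982 and 0.718 times in adult VM cells and 0.985 and 1.60 times in adult TN cells. All 3 neonatal libraries lay above all 4 adult libraries, though how many other pairs of arms separate the ages in this way was not counted. With age, 53.8% of all tested miRNAs were called. The log2 ratio averaged 1.21 ± 0.11 in neonatal libraries (SD, n = 3), against 0.04 ± 0.48 in adult libraries (SD, n = 4), a difference of 1.17 or 2.25-fold (two-sided exact permutation p = 0.0571, the smallest that 3 against 4 libraries allow; 0.114 adjusted over the 4 ratio tests). By subset the log2 ratio averaged 0.51 ± 0.90 in VM libraries (SD, n = 4), against 0.58 ± 0.56 in TN libraries (SD, n = 3), and these overlapped (difference -0.07, two-sided exact permutation p = 1.0).

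In VM cells the share of miR-222-3p in the total of the 2 seed-sharing arms did not overlap between the ages, while whether the total did depended on the scaling. With TMM factors the summed level was 409 and 449 CPM in neonatal VM cells, 194 CPM in neonatal TN, 397 and 480 CPM in adult VM cells and 284 and 309 CPM in adult TN cells, so the VM libraries of both ages overlapped. Scaled by library totals, the sum was 524 and 571 CPM in neonatal VM cells, against 363 and 423 CPM in adult VM cells, and these did not overlap. Of the sum under either scaling, miR-222-3p made up 71.1% and 70.4% in neonatal VM cells and 67.9% in neonatal TN, against 49.5% and 41.8% in adult VM cells and 49.6% and 61.5% in adult TN cells. This share restates the ratio above, for which separation in other pairs of arms was not counted.

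Within the Mir221 hairpin, the 3p arm exceeded the 5p arm by less in the 3 neonatal libraries than in the 4 adult ones. MiR-221-3p had 14.1 and 11.1 times the counts of miR-221-5p in neonatal VM cells and 22.2 times in neonatal TN, against 24.9 and 38.5 times in adult VM cells and 44.2 and 46.3 times in adult TN cells. The neonatal and adult libraries did not overlap, but the 5p arm had only 6 to 46 counts. The closest values, 22.2 in neonatal TN and 24.9 in adult VM, rest on 9 and 20 counts of it. How many other pairs of arms separate the ages in this way was not counted. The log2 ratio averaged 3.92 ± 0.51 in neonatal libraries (SD, n = 3), against 5.22 ± 0.41 in adult libraries (SD, n = 4; difference -1.31, two-sided exact permutation p = 0.0571, again the smallest possible, 0.114 adjusted over the 4 tests). By subset it averaged 4.30 ± 0.81 in VM libraries (SD, n = 4), against 5.16 ± 0.59 in TN libraries (SD, n = 3; difference -0.86, two-sided exact permutation p = 0.171, 0.229 adjusted over the 4 tests).

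**Figure D3:**
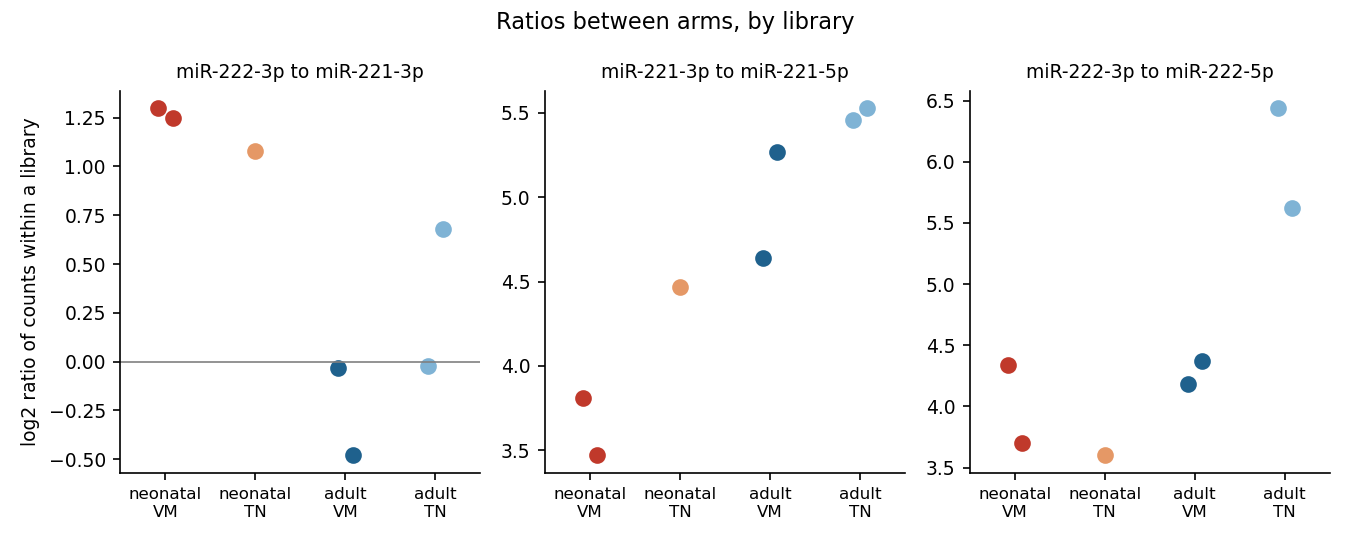
Log2 ratio of counts within each library (vertical axes, a different range in each panel) for 3 pairs of arms across the 4 groups; each point is a library. For miR-222-3p to miR-221-3p the 3 neonatal libraries (1.08 to 1.30) lie above the 4 adult ones (-0.48 to 0.68), and for miR-221-3p to miR-221-5p they lie below them. How many other pairs of arms separate the ages in this way was not counted.

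Between subsets, all 3 members had positive log2 fold changes in VM cells, where the median over all tested miRNAs was 0.01, and 2 passed. Of these, miR-221-5p had met the filter through the neonatal VM libraries alone, where it was high. MiR-221-3p averaged 183 ± 73.7 CPM in VM libraries (SD, n = 4), against 108 ± 41.5 CPM in TN libraries (SD, n = 3; log2 change 0.93 with SE 0.21, adjusted p = 0.0192 in edgeR). MiR-221-5p averaged 8.93 ± 2.11 CPM in VM libraries (SD, n = 4), against 2.87 ± 0.34 CPM in TN libraries (SD, n = 3; log2 change 1.60 with SE 0.34, adjusted p = 0.0164 in edgeR, and 0.0111 with no filter). MiR-222-3p averaged 251 ± 61.4 CPM in VM libraries (SD, n = 4), against 154 ± 31.3 CPM in TN libraries (SD, n = 3; log2 change 0.62 with SE 0.25, adjusted p = 0.0951 in edgeR). Of all tested miRNAs 24.7% were called by subset, 10.8% as higher in VM cells. The arm outside the 3, miR-222-5p, had a log2 change of 1.32 (SE 0.39, edgeR adjusted p = 0.0414), which missed the threshold with the replicate number as a block (0.0795), with limma voom (0.0558) and without any of 5 libraries. It had met the filter through the neonatal libraries alone, and with no filter it had 1.36 (edgeR adjusted p = 0.00942).

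The subset call of miR-221-3p was lost when any of 4 libraries was left out. Its log2 fold change was then 0.73 without adult VM replicate 2 (edgeR adjusted p = 0.0597), 0.93 when adult TN replicate 1 was left out (0.07), 0.89 for adult TN replicate 2 (0.0936) and 0.90 for neonatal VM replicate 2 (0.0666). MiR-221-5p lost its call without adult TN replicate 2 (1.62, edgeR adjusted p = 0.0627) and without the neonatal TN library (1.39, edgeR adjusted p = 0.0529).

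Within adult cells miR-221-3p was higher in VM at 240 ± 56.1 CPM, against 131 ± 17.0 CPM in TN (SD, n = 2 each; log2 change 0.87 with SE 0.24, adjusted p = 0.0139 in edgeR), while miR-222-3p had a log2 change of 0.26 (SE 0.22, edgeR adjusted p = 0.364). MiR-221-5p had 1.40 (SE 0.53, edgeR adjusted p = 0.0523). In adult cells 38.9% of tested miRNAs were called, 23.3% as higher and 15.6% as lower in VM. The miR-221-3p call was lost without adult VM replicate 2 (0.49, edgeR adjusted p = 0.0889) or when either adult TN library was left out (0.89 without replicate 1 and 0.70 without replicate 2, edgeR adjusted p = 0.0912 and 0.176), and miR-222-3p stood at -0.06 without adult TN replicate 1.

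Within neonatal cells miR-222-3p was called higher in VM, at 303 ± 17.8 CPM in neonatal VM (SD, n = 2), against 132 CPM in the neonatal TN library (log2 change 1.20 with SE 0.28, adjusted p = 0.0141 in edgeR). In that comparison 9.72% of tested miRNAs were called, 3.12% as higher and 6.60% as lower in VM cells. MiR-222-3p also passed with each of the 6 other libraries left out in turn, at 1.16 to 1.34. MiR-221-3p had a log2 change of 1.01 (SE 0.31, edgeR adjusted p = 0.0609) and miR-221-5p 1.88 (SE 0.60, edgeR adjusted p = 0.0713). MiR-221-3p passed under RLE factors (0.0494), upper quartile factors (0.0136), library totals (0.0288), no filter (0.0119) and DESeq2 (0.0321). It also passed without adult VM replicate 1 or 2 (log2 change 1.01 and 0.99), as did miR-221-5p (1.88 and 1.86). Those fits drop the spread between the adult VM libraries, and the log2 changes stayed near those with all libraries. Also, miR-221-5p had met the filter through the neonatal VM libraries alone, where it was high. With no filter it did not pass in this comparison (1.94, edgeR adjusted p = 0.0949). All these values rest on a single neonatal TN library, whose own spread could not be measured.

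Whether the age change differed between subsets was asked by the interaction. It was 0.94 for miR-222-3p (SE 0.34, edgeR adjusted p = 0.114), 0.14 for miR-221-3p (SE 0.38, edgeR adjusted p = 0.896) and 0.48 for miR-221-5p (SE 0.83, edgeR adjusted p = 0.813), in log2 units of the age change in VM minus that in TN. None of the 3 members passed, where 7.99% of tested miRNAs did, so a difference between the subsets in the age change of miR-222-3p was not shown in this fit. It passed with DESeq2 (1.08, adjusted p = 0.0225), upper quartile factors (1.34, edgeR adjusted p = 0.0263), the 100 CPM filter (1.08, edgeR adjusted p = 0.0484) and without adult VM replicate 1 or 2 (0.96 and 1.04, edgeR adjusted p = 0.0275 and 0.00349).

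Other hairpins that sit close together gave a scale for the gap between miR-221-3p and miR-222-3p with age. There were 36 pairs of tested hairpins at most 1000 bases apart on a strand, each represented by its most abundant tested arm among arms that RefSeq lists at a single hairpin. For 10 of the pairs this was not the main arm of a hairpin, because the main arm is shared with another hairpin (as let-7f-5p is). The age log2 fold changes of miR-221-3p and miR-222-3p differed by 1.24, rank 15 of the 36, against a median difference of 1.16 over all pairs and a largest of 3.20, between miR-20b-5p and miR-18b-5p. By subset the arms differed by 0.30, rank 26, against a median of 0.49. Among the 26 pairs whose hairpins were both represented by their most abundant arm, a restriction made after the values were seen, the gap with age ranked 8 against a median of 1.02, and that by subset ranked 18 against a median of 0.49. This is a description without a test, since pairs from the same cluster share members.

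**Figure D4:**
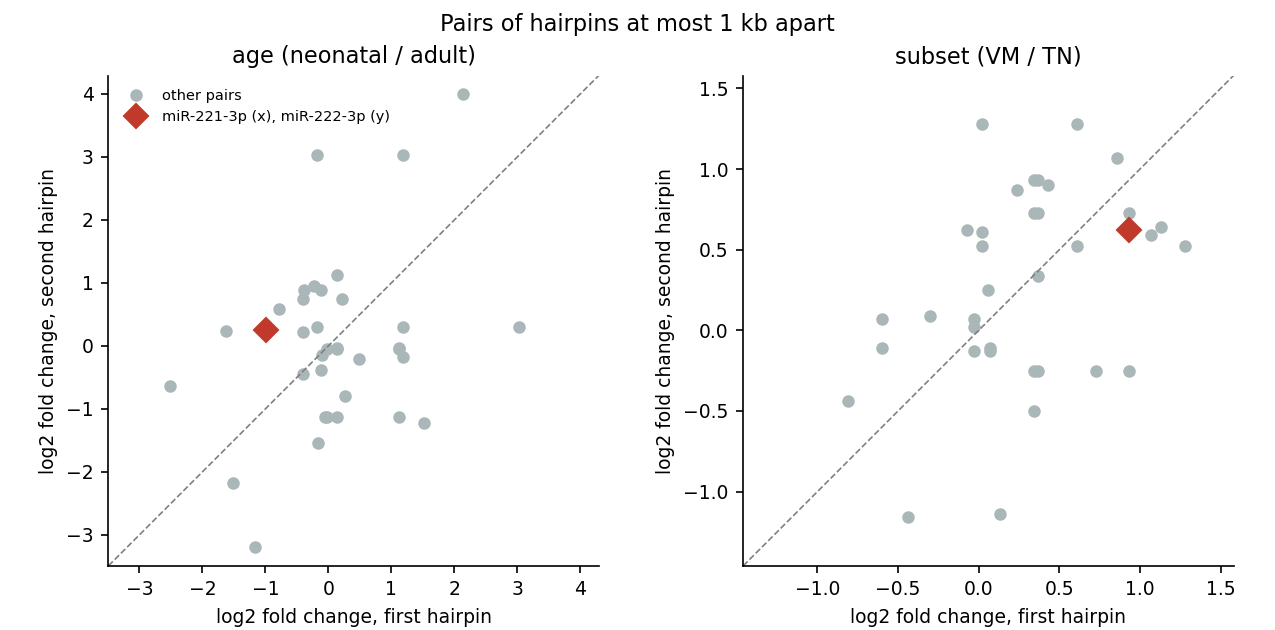
Log2 fold changes of 36 pairs of hairpins at most 1 kb apart, first hairpin on the horizontal and second on the vertical axis, for age (left) and subset (right); the dashed line marks equal change. The miR-221-3p and miR-222-3p pair (diamond) lies off the line with age (-0.99 and 0.25) among other pairs that do the same, and nearer to it by subset (0.93 and 0.62).

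Over the 7 libraries the 2 seed-sharing arms were not each other's closest match. Pearson's r of their log2 CPM was 0.27, which placed miR-222-3p at rank 72 of 165 miRNAs averaging 50 CPM or more by likeness to miR-221-3p. The 5 most like miR-221-3p were miR-101a-3p (r = 0.95), miR-29c-3p (r = 0.94), miR-155-5p (r = 0.93), miR-374b-5p (r = 0.91) and miR-1843a-5p (r = 0.90). All 5 had their highest group mean in adult VM cells, as miR-221-3p did. MiR-155-5p, needed for full CD8+ T cell responses, averaged 308 CPM in neonatal VM, 206 CPM in neonatal TN, 1012 CPM in adult VM and 374 CPM in adult TN. The 5 most like miR-222-3p were miR-340-3p (r = 0.85), miR-15a-5p (r = 0.82), miR-106b-5p (r = 0.77), miR-22-3p (r = 0.77) and miR-340-5p (r = 0.76), each highest in neonatal VM cells. MiR-340-3p averaged 174 CPM in neonatal VM, 49.2 CPM in neonatal TN, 42.0 CPM in adult VM and 27.8 CPM in adult TN. These values share libraries and scaling and are a description. The 5 miRNAs for each arm were picked by r over these same libraries, so sharing its highest group is partly built into the choice.

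MiR-221-3p and miR-222-3p belong to a list of 17 miRNAs reported to rise when T cells are activated, of which 16 were tested. In adult cells 11 of the 16 were higher in VM cells and 1, miR-132-3p, was lower, with a median log2 fold change of 1.34, against 0.09 over all tested miRNAs, of which 23.3% were called higher and 15.6% lower. MiR-221-3p, at 0.87, was the smallest of the 11 increases, which were led by miR-21a-5p at 2.55 and miR-146a-5p, a brake on NF-kB signals, at 2.52. In neonatal cells 2 of the 16 were higher in VM cells, miR-222-3p at 1.20 and miR-21a-5p at 1.72 (edgeR adjusted p = 0.00135), and 2 were lower, with a list median of 0.09, against -0.11 over all tested, of which 3.12% were called higher and 6.60% lower. With age over both subsets 5 of the 16 were higher in neonatal cells and 2 lower, and the lower ones were miR-221-3p and miR-155-5p (log2 fold change -1.36, edgeR adjusted p = 9.96e-04); the list median was 0.20, against -0.05 over all tested. Of all tested 26.4% were called higher and 27.4% lower. The list's count of higher members, 5 of 16, thus lies near the share over all tested, and its count of lower members, 2 of 16, below it.

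The 5 T lymphocyte miRNAs listed summed to 166051 to 174453 CPM in neonatal VM, 286780 CPM in neonatal TN, 342208 to 379172 CPM in adult VM and 499453 to 592573 CPM in adult TN. Its members did not move together. In the same group order, miR-150-5p averaged 72019, 62258, 218648 and 400420 CPM and miR-181a-5p 23329, 171813, 16418 and 89075 CPM. MiR-142a-5p averaged 65430, 44947, 114731 and 47233 CPM, miR-142a-3p 5627, 3621, 7175 and 3774 CPM and miR-342-3p 3847, 4140, 3718 and 5513 CPM. In bulk libraries, fewer cells of a type and less RNA per cell cannot be told apart. The 2 endothelial markers, both arms of miR-126a, summed to 54.4 to 75.8 CPM in neonatal VM, 56.9 CPM in neonatal TN, 21.7 to 26.3 CPM in adult VM and 8.09 to 8.99 CPM in adult TN. Their sum was thus higher in neonatal than in adult libraries and, within adult cells, higher in VM than in TN. Of 8 stromal and muscle markers 3 (miR-214-3p, miR-1a-3p and miR-206-3p) were at 0, and the list summed to 59.8 to 71.2 CPM in neonatal VM, 98.3 CPM in neonatal TN, 27.0 to 49.8 CPM in adult VM and 15.6 to 30.0 CPM in adult TN. The 5 erythroid markers summed to 156 to 178 CPM in neonatal VM, 446 CPM in neonatal TN, 494 to 593 CPM in adult VM and 243 to 325 CPM in adult TN, nearly all of it miR-486a-5p and miR-486b-5p, while miR-451a averaged at most 9.65 CPM in any group. The miR-486 pair had nearly equal means in each group (81.4 and 80.9 CPM in neonatal VM, 270 and 269 CPM in adult VM). Whether they are separate signals was not tested. The 4 myeloid and progenitor markers summed to 35.5 to 90.5 CPM in neonatal VM, 34.2 CPM in neonatal TN, 151 to 191 CPM in adult VM and 70.2 to 125 CPM in adult TN, mostly miR-10a-5p, with miR-223-3p at most 10.6 CPM in any group mean. The part of these cells in the values of miR-221 and miR-222 was not tested.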

How the data were processed

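The deposited table holds the authors' estimated counts for each mature arm and precursor; mm10 is the build named in the submitters' processing notes, and the aligner and counter are not given in the sources used here. Cells were sorted at over 95% purity and libraries made with the TruSeq small RNA kit, per the labels' protocols. Counts were summed per name and rounded, giving totals of 1577031 to 3278449 per library. All 7 libraries entered every fit. The 288 miRNAs that reached 10 CPM in 2 or more libraries entered edgeR 4.0.16 (R 4.3.3), quasi-likelihood with robust dispersions, TMM factors and Benjamini-Hochberg adjustment at 0.05. Averages over subset or age used an additive model, the other 5 comparisons a 4-group model without a replicate block. Each SE belongs to the fitted log2 change. Ratios between arms were compared with exact permutation tests (scipy 1.17.1). These were not stratified, so the tests by age did not account for subset, whose mix differs between the ages, nor those by subset for age. Coordinates and sequences came from GENCODE M21 and RefSeq on GRCm38. The fit was tested on simulated counts with the same libraries and a spread estimated from these data. Of simulated log2 changes of 1 it called 83.3% with age over both subsets. It called 46.9% by subset in neonatal cells, 34.7% with age in TN and 29.2% for the interaction. Changes of that size can therefore be missed in those comparisons. Members, lists and the naming rule (the 4 arms, the 5 miRNAs most like each 3p arm, and called list members) were chosen with earlier results of these data known. Intervals and limits at 0 counts cover counting error only, as PCR reads carry no molecular identifiers. Settings varied were scaling (RLE, library totals, upper quartile), no filter, a 100 CPM filter, DESeq2 1.42.0, limma 3.58.1 voom, the replicate block, the largest precursor value per name and leaving out each library. Figures used matplotlib 3.10.9.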

Additional observations from a re-analysis of the deposited data

How the results depend on the processing

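Of 179 values (3 members, 7 comparisons, 9 settings with all libraries; miR-221-5p fell out under the 100 CPM filter and DESeq2 gave it no adjusted p by subset in adult or neonatal cells or for the interaction), 159 kept their direction and their side of the threshold; the cause of the others was not tested. Library totals gave miR-221-3p -0.54 with age, -0.72 in TN and -0.42 in VM (each no longer called) and miR-222-3p 0.71 with age and 0.78 by subset (called); miR-222-3p (0.04) and miR-221-5p (0.33) turned sign with age in TN, as did miR-221-5p under the block (0.01). MiR-221-5p was called by subset under library totals in adult (1.5) and neonatal cells (2.12) and under upper quartile factors in neonatal cells (2.25), but not with no filter (edgeR adjusted p = 0.132 in adult and 0.0949 in neonatal cells); it had met the filter through the neonatal VM libraries. In neonatal cells miR-221-3p was called by subset with RLE and DESeq2 and no filter (1.08 each), library totals (1.26) and upper quartile factors (1.39). MiR-222-3p was not called with age in VM with no filter (0.49), and its interaction was called with upper quartile factors (1.34), the 100 CPM filter and DESeq2 (1.08 each).

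The 100 CPM filter, which tests fewer miRNAs, called 79 with age (155 in the main analysis), 69 in TN (138), 93 in VM (155) and 41 by subset (71). By subset in neonatal cells (28) upper quartile factors called 52 and no filter 53, and for the interaction (23) no filter called 43, DESeq2 38 and voom 15. Deviations of same-numbered replicates correlated at 0.0165 (adult VM and adult TN), 0.138 (adult VM and neonatal VM) and -0.16 (adult TN and neonatal VM). With a single difference between replicates per group, these values cannot show whether same-numbered libraries share animals or a batch. The replicate block left 42 called by subset and changed no call of the 3 members.

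Leaving out each library, the log2 fold changes of miR-221-3p ranged from -1.13 to -0.87 with age, -1.32 to -1.06 in TN, -1.16 to -0.62 in VM, 0.73 to 1.04 by subset, 0.49 to 1.07 in adult cells, 0.98 to 1.18 in neonatal cells and -0.06 to 0.50 for the interaction. Those of miR-222-3p ranged from 0.10 to 0.64, -0.65 to -0.22, 0.55 to 0.69, 0.25 to 0.85, -0.06 to 0.44, 1.16 to 1.34 and 0.84 to 1.22 in that order, and those of miR-221-5p from 1.39 to 1.66 by subset and 1.85 to 1.96 in neonatal cells. MiR-221-5p was not tested without either neonatal VM library. Counts of calls ranged from 115 to 158 with age, 83 to 179 in TN, 106 to 171 in VM, 18 to 111 by subset, 23 to 142 in adult cells, 16 to 77 in neonatal cells and 6 to 86 for the interaction. The log2 ratio of miR-222-3p to miR-221-3p differed by 1.0 to 1.39 with age and by -0.37 to 0.26 by subset, and that of miR-221-3p to miR-221-5p by -1.58 to -1.08 and -1.20 to -0.59. Without the neonatal TN library, age in TN, subset in neonatal cells and the interaction could not be fitted. Where leaving a library out left 1 in a group, it is assumed to vary like the other groups. Depth limits the 5p arms, at 3 to 93 counts per library.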

Other observations

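Within the Mir222 hairpin, the 3p arm exceeded the 5p arm most in adult TN cells. MiR-222-3p had 20.3 and 13.0 times the counts of miR-222-5p in neonatal VM cells and 12.1 times in neonatal TN, against 18.1 and 20.7 times in adult VM cells and 87.0 and 49.3 times in adult TN cells. The adult TN values rest on 3 and 9 counts of miR-222-5p. No test was run on this ratio.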
